A study of Mus musculus with 62 samples.

Results

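The 6 receptors *Mc4r*, *Mc3r*, *Calcr*, *Gpr83*, *Lepr* and *Insr*, all known for roles in feeding and energy balance, were followed through 5 brain regions of mice given ethanol once or daily. They were taken by gene symbol from a count table of 56415 genes. The set was put together with measured values in view: *Mc4r* for its difference in the cortex (CTX) after acute ethanol, *Gpr83* and *Calcr* for theirs in the dorsal striatum (DS) after acute ethanol, and the others as receptors of the same field. For that reason the members' values in those acute comparisons, and in the comparisons of paradigms that contain them, are given as a description with no test. All other comparisons were tested.

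Poly(A) RNA was sequenced from 62 tissue samples of 16 adult male C57BL/6J mice, 8 to 10 weeks old. Saline or 2 g/kg ethanol was injected i.p., as 1 dose (acute paradigm) or as 10 doses on successive days (chronic paradigm), and brains were collected 4 h after the last dose. Cores were cut from frozen coronal slices of the CTX, the dorsal (dHPC) and ventral hippocampus (vHPC), the DS and the ventral striatum (VS), which gave 20 groups of 3 or 4 mice with 1 to 5 regions per mouse. CTX and dHPC libraries were made with a kit that does not mark strand and the others with a directional kit on another platform, so no level was compared across these 2 batches.

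Totals ran from 8149628 to 71164766 counts per library, with medians of 51703961 in the CTX and 48892266 in the dHPC against 14530176, 13091491 and 14524117 in the vHPC, DS and VS. DS chronic saline replicate 2, the shallowest library, had no counts on several whole chromosomes, where *Gpr83* and *Insr* lie, and was left out, which leaves 2 saline libraries in the DS chronic comparison. Levels are CPM, a library's counts scaled to a common depth, after TMM scaling within a batch. In a tissue core, fewer cells of a type and less RNA per cell cannot be told apart. Defining markers of striatal neurons (10 of 10 genes) and of pallial excitatory neurons (9 of 9 genes) were detected in every region, and their summed levels are given beside results from the same libraries.

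These receptors belong to 3 kinds. MC4R and MC3R are G protein-coupled receptors for melanocortin peptides cut from the *Pomc* precursor, and in the hypothalamus signalling through MC4R restrains food intake. The calcitonin receptor, the product of *Calcr*, is another G protein-coupled receptor, which becomes an amylin receptor when paired with a RAMP accessory protein, and GPR83 is an orphan-class receptor first described as a glucocorticoid-induced gene and since linked to peptides of the proSAAS precursor. The leptin receptor is a cytokine receptor that acts through JAK2 and STAT3, with short forms common in the choroid plexus and vessels, and the insulin receptor is a tyrosine kinase present in most cells.

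In the 8 tested comparisons of ethanol with saline, no member passed an FDR of 0.1 (edgeR's quasi-likelihood test, adjusted over all genes): 0 of 42 member tests, of which 14 had an unadjusted p below 0.05. Such p-values were found in 10.4% (CTX), 8.23% (dHPC), 9.51% (vHPC), 7.53% (DS) and 9.95% (VS) of all genes after chronic ethanol and in 7.88% (dHPC), 11.9% (vHPC) and 7.32% (VS) after acute ethanol. DESeq2 called 2 of the members, *Gpr83* in the DS and in the VS after chronic ethanol, where it called 0.776% and 1.79% of all genes. It called 0.608%, 0.859% and 1.08% of genes in the chronic CTX, dHPC and vHPC comparisons and 1.07%, 2.9% and 0.889% in the acute dHPC, vHPC and VS comparisons. The share of genes called by edgeR was 0.042% in dHPC acute, 0.0555% in vHPC chronic, 0.0399% in VS acute and 0% in the other 5. The signs of the fold changes differed by region, as a description, since the regions of a mouse are not independent. *Mc4r* was higher with ethanol in all 6 comparisons of the CTX and hippocampus (log2 fold change 0.20 to 1.92, the description included). The lowest, in the vHPC after chronic ethanol, turned to -0.07 without 1 ethanol library. *Gpr83* and *Calcr* were higher in all 4 striatal comparisons, acute DS descriptions included (0.49 to 1.05 and 0.76 to 7.59, the last a fit against a group at 0). In both DS comparisons *Calcr* passed the low-count filter (5 or more counts in 2 or more libraries of a group) through ethanol libraries alone. Its higher sign there was thus favoured in advance.

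**Figure D1:**
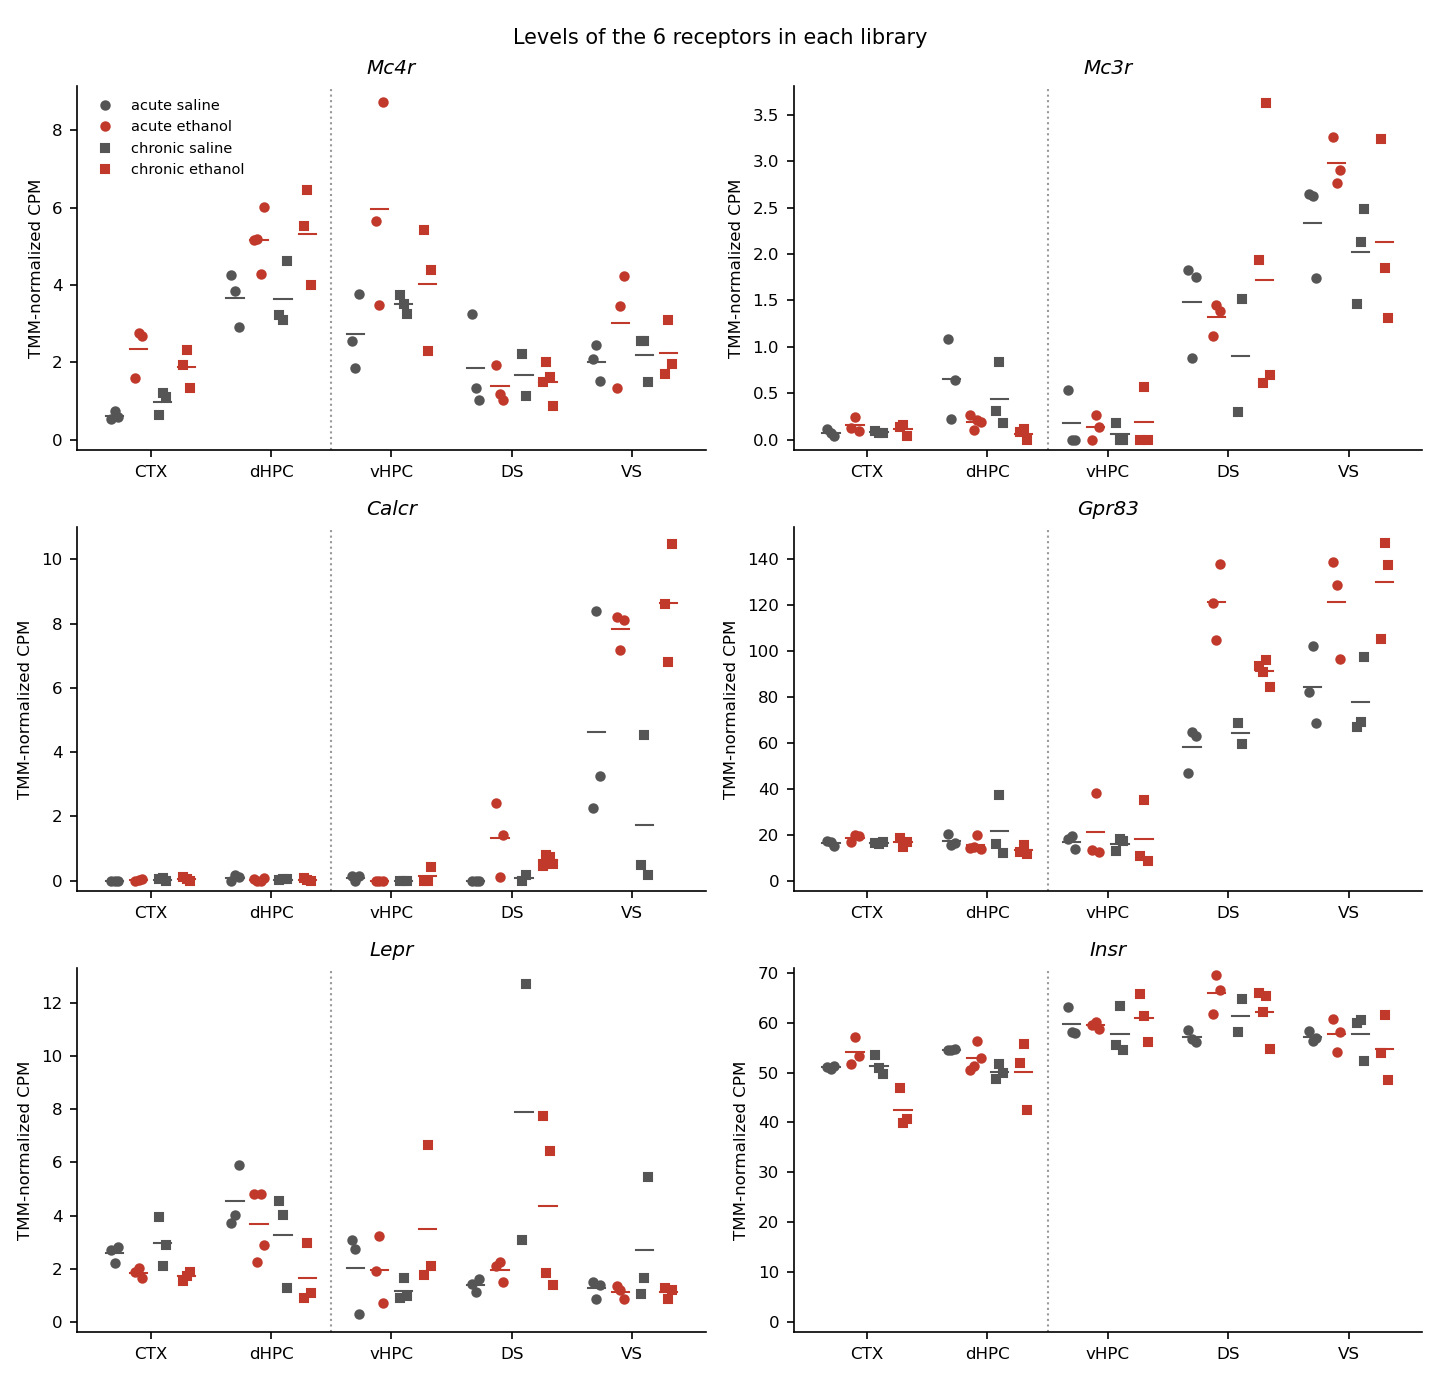
Levels of the 6 receptors in each library, as TMM-normalized CPM (vertical axis) by region (horizontal axis), with acute libraries as circles, chronic as squares, saline in grey, ethanol in red, and group means as short lines. The dotted line parts the 2 batches, and DS chronic saline replicate 2 is not plotted. Right of the line *Gpr83* and *Mc3r* stand higher in the DS and VS than in the vHPC, and *Calcr* has at most 8 counts per library outside the striatum.

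Levels were compared between regions in saline mice of both paradigms. Per exon length (RPKM, which allows genes to be compared), *Gpr83* had a mean level of 15.9 ± 3.06 (SD, n = 6) in the VS and 11.9 ± 1.62 (n = 5) in the DS. In the vHPC of the same batch its level was 3.26 ± 0.510 (n = 6). *Insr* had mean levels of 3.73 and 3.81 RPKM in the CTX and dHPC of one batch and of 4.28, 4.28 and 4.18 in the vHPC, DS and VS of the other, and exceeded *Gpr83* in the CTX (3.73 against 3.23). *Mc4r* was at 0.285 RPKM in the CTX and 1.30 in the dHPC, and in the other batch at 1.11 in the vHPC and 0.639 in the DS. *Lepr* was at 0.394 RPKM in the CTX and 0.556 in the dHPC, and at 0.228 in the vHPC and 0.281 in the VS. Its DS mean of 0.566 RPKM rests on 1 library, chronic saline replicate 6, at 12.7 CPM beside a median of 1.60 CPM over the 5 DS saline libraries. *Mc3r* reached 0.831 ± 0.188 RPKM and *Calcr* 0.814 ± 0.777 in the VS, levels whose spreads overlap with each other and with the 0.751 ± 0.178 of *Mc4r* there. Elsewhere *Calcr* had a mean of at most 0.0170 RPKM.

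Between CTX and dHPC, *Mc4r* and *Mc3r* were higher in the dHPC. *Mc4r* ranged from 0.538 to 1.20 CPM in 6 CTX libraries and from 2.91 to 4.61 CPM in 6 dHPC libraries, with no overlap (log2 difference 2.17 ± 0.24 SE, FDR = 0.000217). *Mc3r* ranged from 0.0365 to 0.115 CPM and from 0.176 to 1.08 CPM (2.54 ± 0.51, FDR = 0.00453). It passed the low-count filter here through dHPC libraries alone, so its higher sign was favoured in advance. *Mc4r* and *Mc3r* are 2 of 6 members called, where 45.7% of all genes tested were called and 14.7% were higher in the dHPC without overlap.

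Between vHPC and the striatum, *Gpr83* and *Mc3r* were higher in both striatal regions. *Gpr83* ranged from 13.0 to 19.4 CPM in the vHPC, from 47.1 to 68.7 CPM in the DS and from 66.9 to 102 CPM in the VS. The striatal ranges stood apart from the hippocampal range and met each other (DS against vHPC 1.83 ± 0.13, FDR = 9.98e-08, VS against vHPC 2.27 ± 0.13, FDR = 1.72e-08). *Mc3r* had 0 to 8 counts per library in the saline vHPC and was higher in the DS (FDR = 0.00201) and VS (FDR = 0.000293), with 0.295 to 1.83 CPM and 1.46 to 2.64 CPM. It passed the low-count filter here through striatal libraries alone, so its higher sign was again favoured in advance. *Mc4r* went the other way, with 1.02 to 3.25 CPM in the DS against 1.86 to 3.78 CPM in the vHPC (-0.80 ± 0.32, FDR = 0.0690), and the ranges overlapped. This call was kept in 10 of 17 fits without a library. The members called were 3 of 6 in DS against vHPC, where 40.5% of all genes were called, and 3 of 6 in VS against vHPC, where 36.5% were. Higher striatal levels without overlap were found in 9.26% (DS) and 7.79% (VS) of genes.

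*Calcr* was higher in the VS than in the other regions of its batch among the saline libraries fitted. Its saline counts were 24, 96 and 56 in acute and 8, 64 and 2 in chronic VS libraries, against 0 to 2 counts in each of 6 vHPC and 5 DS libraries. The VS level passed the test against the vHPC (FDR = 0.000640) and the DS (FDR = 0.0247), the latter kept in 13 of 17 fits without a library and given no adjusted p by DESeq2. In these fits *Calcr* passed the low-count filter through VS libraries alone, so its higher sign there was favoured in advance. The DS saline library left out of these fits held 16 *Calcr* counts, or 1.96 CPM before TMM scaling, above the 0.486 and 0.166 CPM of 2 chronic VS saline libraries. *Gpr83* was 0.44 ± 0.12 higher in the VS than the DS on the log2 scale (FDR = 0.0842, kept in 7 of 17 such fits). With these, 2 of 6 members were called between VS and DS, against 3.43% of all genes.

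*Mc4r* (chr18:66990775-66993577, minus strand, GRCm39, ENSMUSG00000047259) has 1 annotated isoform. In the CTX its counts were 28, 40 and 32 in the 3 acute saline libraries and 77, 134 and 163 in the 3 acute ethanol libraries, or 0.538, 0.732 and 0.585 CPM against 1.59, 2.76 and 2.68 CPM. Each ethanol library exceeded each saline library, as for 8.88% of all genes, and the log2 fold change was 1.92 ± 0.26. This is the value on which the gene was chosen, in a comparison in which 1.99% of all genes were called. It fell between 1.76 and 2.13 under every alternative run. The pallial excitatory neuron list summed to 3550 to 3767 CPM with saline and 3330 to 3550 CPM with ethanol, with 1 of its 9 genes called higher and 3 lower, and 5 of 6 oligodendrocyte markers were called higher, with sums of 1882 to 2125 CPM with saline and 2205 to 2906 CPM with ethanol. The part of these cells in the result was not tested.

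After chronic ethanol, in other mice, CTX *Mc4r* was again higher: 28, 64 and 58 counts with saline (0.634, 1.20 and 1.11 CPM) against 82, 114 and 66 counts with ethanol (1.94, 2.33 and 1.34 CPM). The groups did not overlap, but the difference of 0.91 ± 0.30 did not pass the test (FDR = 0.443, DESeq2 FDR = 0.264). No gene was called in this comparison by edgeR, 2656 had an unadjusted p below 0.05, and DESeq2 called 0.608%. Non-overlapping groups with ethanol higher occurred in 9.34% of all genes.

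In the dHPC *Mc4r* levels were 4.25, 3.83 and 2.91 CPM with acute saline and 5.16, 5.18, 4.28 and 6.03 CPM with acute ethanol. All ethanol libraries lay above all saline libraries, by a narrow margin at the closest pair, as for 3.52% of genes, and the difference was 0.50 ± 0.16 (FDR = 0.469). In the chronic paradigm the levels were 3.22, 3.10 and 4.61 CPM against 5.52, 6.45 and 3.99 CPM, with overlap (0.55 ± 0.22, FDR = 0.583). In the vHPC, acute saline gave 2.56, 1.86 and 3.78 CPM and acute ethanol 5.65, 3.48 and 8.73 CPM (1.11 ± 0.38, FDR = 0.335), again with overlap. The chronic vHPC difference was 0.20 ± 0.33, and -0.07 without chronic ethanol replicate 4. The dentate granule neuron list (6 of 6 genes, none at 0) summed to 185 to 373 CPM with acute saline and 466 to 712 CPM with acute ethanol in the vHPC. In the dHPC it was 358 to 551 against 557 to 776 CPM in the chronic and 479 to 553 against 446 to 637 CPM in the acute paradigm. All 6 genes had higher fitted levels with ethanol in vHPC acute and dHPC chronic, none called, and their part in the *Mc4r* differences was not tested.

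In the striatum the sign of *Mc4r* was mixed, from -0.45 ± 0.50 in the DS after acute ethanol to 0.58 ± 0.44 in the VS after acute ethanol (FDR = 0.858), with -0.19 ± 0.48 and 0.03 ± 0.37 in the DS and VS after chronic ethanol. All 4 comparisons overlapped. The counts there were low, 10 to 70 per library.

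*Mc3r* (chr2:172090412-172093034, plus strand, ENSMUSG00000038537), the other brain melanocortin receptor, differed most in the dHPC, in the opposite direction to *Mc4r*. Its dHPC counts were 66, 10 and 37 with acute saline and 12, 5, 10 and 10 with acute ethanol. The groups overlapped, and the difference was -1.77 ± 0.51 (FDR = 0.401). In the chronic paradigm the counts were 20, 39 and 8 with saline and 6, 6 and 0 with ethanol, without overlap in CPM, as in 7.29% of genes with ethanol lower (-2.61 ± 0.86, FDR = 0.566).

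Striatal neuron markers were set beside these dHPC values of *Mc3r*. The summed striatal list was 946, 718 and 592 CPM in the acute saline libraries with 66, 10 and 37 *Mc3r* counts, and 316 to 632 CPM with acute ethanol. It was 210 to 2802 CPM with chronic saline and 184 to 322 CPM with chronic ethanol, and all 10 of its genes had lower fitted levels with ethanol in both paradigms, none of them called. The highest *Mc3r* library of each saline group, with 66 and 39 counts, had the highest sum, 946 and 2802 CPM. The order of the other saline libraries was the same in the chronic paradigm and differed in the acute paradigm. The part of these cells in the result was not tested.

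Elsewhere *Mc3r* was near the floor or did not differ. It had 2 to 12 counts per CTX library and 0 to 10 per vHPC library, where it failed the low-count filter. In the VS the acute ethanol levels of 3.26, 2.76 and 2.91 CPM lay above the saline levels of 2.64, 2.62 and 1.74 CPM, as in 6.53% of genes, with a difference of 0.36 ± 0.30 (FDR = 0.870). The DS differences were -0.16 ± 0.43 after acute and 0.99 ± 0.89 after chronic ethanol, and the chronic VS difference was 0.07 ± 0.41.

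*Calcr* (chr6:3685680-3764714, minus strand, ENSMUSG00000023964) was scarce, and its counts are given in full for the striatum. In the DS it had 0, 0 and 0 counts with acute saline and 30, 2 and 64 counts with acute ethanol (2.40, 0.132 and 1.43 CPM). Of the 3 ethanol libraries, 2 were above and 1 lay within the 3 counts taken as the floor of a library. Against that floor the mean ethanol level was 5.32-fold higher. Both mates of a pair are counted, so a floor of 3 pairs would be higher and this ratio lower. The acute DS difference is a value on which the gene was chosen, in a comparison with 5.15% of genes called. The ethanol library with 64 counts was also the deepest of the DS, with 46564992 counts in all.

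With chronic ethanol the 4 DS libraries had 6, 8, 12 and 6 *Calcr* counts (0.448, 0.809, 0.750 and 0.522 CPM), and the 2 saline libraries 0 and 2. All these counts are even, as when both mates of a pair are counted, so error was taken over 16 and 1 pairs. The ratio per depth was 7.60, with an exact 95% interval of 1.18 to 318.6 that covers counting error only. The groups did not overlap, as in 9.43% of genes with ethanol higher, and the test did not pass (FDR = 0.598). The gene passed the low-count filter here through the ethanol libraries alone. The saline library left out for its missing chromosomes held 16 *Calcr* counts in 8149628, or 1.96 CPM before TMM scaling, more than any of the 4 ethanol libraries. It also lacks counts on most of chromosome 6 (1567 of the 1695 genes counted there in other DS libraries lie past its last counted gene), with *Calcr* in the stretch that has them, and its CPM is over a total that lacks those chromosomes. With it in the fit the log2 difference was 0.29 in place of 2.73.

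In the VS, where *Calcr* is measured best, acute saline libraries had 24, 96 and 56 counts (2.27, 8.39 and 3.25 CPM) and acute ethanol libraries 146, 83 and 134 counts (8.21, 7.17 and 8.11 CPM). The groups overlapped through 1 saline library (0.76 ± 0.40, FDR = 0.744). Chronic saline libraries had 8, 64 and 2 counts (0.486, 4.54 and 0.166 CPM) and chronic ethanol libraries 122, 140 and 160 counts (8.60, 6.80 and 10.5 CPM). All 3 ethanol libraries exceeded all 3 saline libraries, which is also so for 8.75% of genes, and the difference of 2.30 ± 0.78 did not pass (FDR = 0.388, DESeq2 FDR = 0.492). Without chronic saline replicate 5, which had the 64 counts, it was 4.60 with an FDR of 0.00219. Fits of this comparison with a library left out called from 0 to 615 genes of all. With all libraries in, edgeR called 0 of 20331 genes, 2023 had an unadjusted p below 0.05 and DESeq2 called 1.79%.

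**Figure D2:**
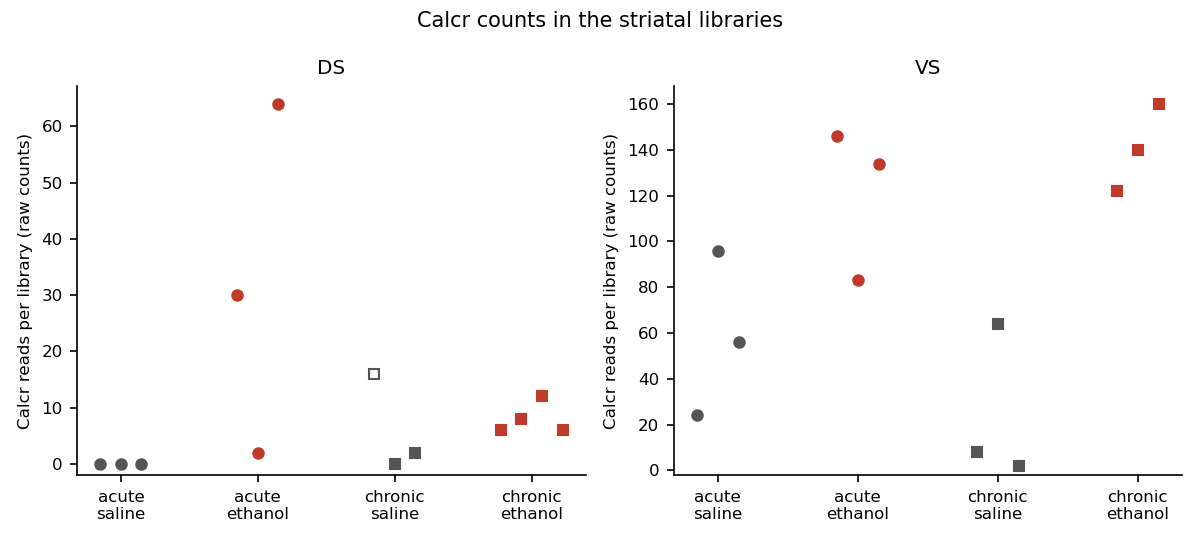
*Calcr* reads per library as raw counts (vertical axes, not scaled for depth) in the DS and VS, by paradigm and treatment (horizontal axes), with each symbol 1 library. The open square is DS chronic saline replicate 2 (16 counts), which was left out of the fits. All 3 DS acute saline libraries are at 0, and the 3 VS chronic ethanol libraries, at 122 to 160 counts, lie above all 3 chronic saline libraries.

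Markers of neighbouring tissue were set beside these *Calcr* values. The septal, pallidal and basal forebrain list (7 of 7 genes measured, none at 0) summed to 106 to 181 CPM in DS acute saline and 137 to 163 CPM in DS acute ethanol, with 2 of 7 genes called higher, and to 83.4 and 126 CPM in DS chronic saline and 137 to 202 CPM in DS chronic ethanol. In the VS it was 97.9 to 130 against 103 to 175 CPM in the acute and 90.7 to 261 against 115 to 197 CPM in the chronic paradigm. The hypothalamic and preoptic list (10 genes, with *Hcrt*, *Otp*, *Sim1* and *Nkx2-4* at a median of 0 counts in the VS) summed to 5.04 to 7.94 CPM in VS chronic saline and 8.39 to 12.0 CPM in chronic ethanol, and to 5.69 to 8.30 against 7.48 to 25.7 CPM in the acute paradigm. In the DS, where *Oxt* too was at a median of 0, it summed to 2.85 to 4.06 against 3.97 to 5.89 CPM in the acute and to 5.60 and 7.02 against 4.00 to 6.12 CPM in the chronic paradigm. Their part in the *Calcr* differences was not tested. In the CTX, dHPC and vHPC the gene had 0 to 8 counts per library.

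*Gpr83* (chr9:14771506-14782085, plus strand, ENSMUSG00000031932) had the most reads of the members in the striatum. In the DS its levels were 47.1, 64.8 and 62.8 CPM with acute saline and 121, 105 and 138 CPM with acute ethanol (464 to 878 against 1509 to 6184 counts). The lowest ethanol library exceeded the highest saline library (as for 11% of all genes), and the log2 fold change was 1.05 ± 0.12, 0.92 to 1.14 under every alternative run. *Gpr83* was chosen on this comparison, so the value stands as a description.

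The chronic DS comparison, in other mice, had the same sign. Levels were 68.7 and 59.6 CPM with saline and 93.4, 91.0, 95.9 and 84.5 CPM with ethanol, without overlap, as in 9.43% of genes with ethanol higher. The difference was 0.49 ± 0.10, with an FDR of 0.346 by edgeR, which called 0 of 19844 genes (1495 with an unadjusted p below 0.05). DESeq2 gave an FDR of 0.0194, in a test that called 0.776% of genes.

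In the VS, acute saline gave 82.3, 102 and 68.5 CPM and acute ethanol 139, 129 and 96.6 CPM. These groups overlapped (0.52 ± 0.17, FDR = 0.506), with 0.0399% of genes called. Chronic saline gave 66.9, 69.0 and 97.4 CPM and chronic ethanol 105, 147 and 137 CPM, without overlap, as in 8.75% of genes with ethanol higher. The difference of 0.73 ± 0.17 had an FDR of 0.256 by edgeR and of 0.00687 by DESeq2.

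Striatal and pallial neuron markers were set beside *Gpr83* in the same comparisons. In the DS the summed striatal list was 6116 to 7358 CPM with acute saline and 8133 to 8394 CPM with acute ethanol, with 8 of 10 genes called higher, and the pallial list fell from 1368 to 1568 CPM to 766 to 956 CPM, with 8 of 9 genes called lower. Per 1000 CPM of the striatal list, *Gpr83* was 7.70 to 9.50 CPM with acute saline and 12.8 to 17.0 CPM with acute ethanol, without overlap, a description in the comparison on which the gene was chosen. The chronic DS values of this ratio overlapped, 9.07 and 14.7 CPM against 8.91 to 16.6 CPM. The striatal sums themselves overlapped between saline and ethanol in DS chronic, VS acute and VS chronic. Of the 10 genes, 10, 7 and 10 had higher fitted levels with ethanol there, and 0 were called.

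The chronic DS pallial list was 1136 and 1357 CPM with saline and 553 to 1041 CPM with ethanol, with 8 of 9 fitted differences below 0 and none called. In the VS the ratio overlapped in both paradigms, with 16.5 to 28.4 against 22.6 to 35.0 CPM in the acute and 13.5 to 20.6 against 18.9 to 26.2 CPM in the chronic paradigm. The VS pallial list was 754 to 1171 against 368 to 556 CPM in the acute and 464 to 1336 against 355 to 540 CPM in the chronic paradigm, with 1 gene called lower in the acute and none in the chronic comparison. The part of these cell types in the *Gpr83* differences was not tested further.

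Outside the striatum *Gpr83* was even, apart from single libraries. Its CTX levels were 14.9 to 20.1 CPM in all 12 libraries, with differences of 0.19 ± 0.09 after acute (a description) and 0.03 ± 0.11 after chronic ethanol (FDR = 0.945). In the dHPC 12 of 13 libraries had 11.6 to 20.5 CPM and chronic saline replicate 5 had 37.1 CPM. In the vHPC acute ethanol replicate 4 had 38.3 CPM and chronic ethanol replicate 5 had 35.3 CPM, with 8.68 to 19.4 CPM in the other 10. The same 3 libraries had the highest striatal sums of their region, 2802 CPM in the dHPC and 1231 and 1508 CPM in the vHPC, where the other vHPC libraries had 180 to 451 CPM. The dHPC and vHPC tests did not pass (FDR of 0.655 to 0.926), and the signs of both vHPC differences turned when the high library was left out (-0.41 after acute and -0.74 after chronic ethanol).

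The promoter windows of *Gpr83* and *Calcr*, the members chosen on the acute DS comparison, are shown for the letters they hold. Each runs from 250 bases before to 50 bases after a start site, 5′ to 3′ on the gene's strand, from RefSeq on GRCm38.p6, a build that differs from the GRCm39 of the gene coordinates above. Capitals mark TGACG, the short core of the cAMP response element, on either strand, and TATAAA, the letters of a TATA box, which in the *Gpr83* window begin 1 base before the annotated start. *Calcr* has 2 alternative starts in this table.
Gpr83 (chr9:14859960-14860259, plus strand): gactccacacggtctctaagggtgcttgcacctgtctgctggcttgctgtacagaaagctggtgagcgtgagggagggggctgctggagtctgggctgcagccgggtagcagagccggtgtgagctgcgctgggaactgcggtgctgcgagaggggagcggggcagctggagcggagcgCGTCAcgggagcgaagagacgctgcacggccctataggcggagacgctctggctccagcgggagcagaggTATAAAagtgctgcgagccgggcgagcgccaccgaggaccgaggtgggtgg
Calcr, start a (chr6:3763574-3763873, minus strand): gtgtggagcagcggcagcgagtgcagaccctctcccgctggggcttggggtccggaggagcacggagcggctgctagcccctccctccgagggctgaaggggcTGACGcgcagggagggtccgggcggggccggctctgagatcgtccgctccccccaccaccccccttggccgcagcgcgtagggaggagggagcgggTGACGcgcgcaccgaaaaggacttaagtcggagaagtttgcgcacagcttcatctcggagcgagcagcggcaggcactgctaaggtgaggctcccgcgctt
Calcr, start b (chr6:3764664-3764963, minus strand): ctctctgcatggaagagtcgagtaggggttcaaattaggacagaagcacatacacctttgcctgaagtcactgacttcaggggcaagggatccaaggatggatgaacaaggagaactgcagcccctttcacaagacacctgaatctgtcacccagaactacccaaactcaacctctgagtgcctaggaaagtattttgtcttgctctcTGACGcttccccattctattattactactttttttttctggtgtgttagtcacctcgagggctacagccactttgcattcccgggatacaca

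TGACG stands in 4 of the 6 windows found for *Calcr*, *Gpr83*, *Lepr* and *Mc3r*, namely both of *Calcr* and those of *Gpr83* and *Mc3r*, and in 20.8% of 32851 RefSeq windows of that length searched the same way on both strands. The full TGACGTCA, which contains that core, was in none of the 6 and in 1.79% of all. TATAAA was in the *Gpr83* window and in 13.6% of all. AGAACA, an arm of the glucocorticoid response element, and the full palindromic element, which contains it, were in none of the 6 and in 19.0% and 0.00913% of all windows. These letter matches are no evidence of binding, and their absence from a window says nothing of the factor.

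*Lepr* (chr4:101574601-101672549, plus strand, ENSMUSG00000057722) was lower in the CTX with ethanol in both paradigms. Levels were 2.69, 2.21 and 2.81 CPM with acute saline and 1.88, 2.02 and 1.65 CPM with acute ethanol, without overlap, as in 8.4% of genes with ethanol lower (-0.48 ± 0.17, a description). In the chronic paradigm they were 3.96, 2.10 and 2.90 CPM against 1.54, 1.72 and 1.86 CPM, also without overlap, as in 8.91% of genes with ethanol lower. The chronic difference of -0.81 ± 0.24 did not pass (FDR = 0.443, DESeq2 FDR = 0.194).

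Fibroblast, endothelial and choroid plexus markers were set beside *Lepr* in the CTX. The meningeal and perivascular fibroblast list (8 of 8 genes measured, none at 0) summed to 98.8 to 116 CPM with acute saline and 67.1 to 77.1 CPM with acute ethanol, with 5 of 8 genes called lower. In the chronic paradigm it was 60.2 to 107 CPM against 35.1 to 87.1 CPM, with overlap, all 8 fitted differences below 0 and none called. After acute ethanol 7 of 7 endothelial genes had lower fitted levels, 2 of them called, and 8 of 9 choroid plexus genes, with 0 called. After chronic ethanol 5 of 7 endothelial and 6 of 9 choroid plexus genes had lower fitted levels, with 0 called. The part of these cells in the *Lepr* differences was not tested.

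In the vHPC the ethanol libraries of the chronic paradigm were higher in *Lepr*, 1 of them far above the rest. Its vHPC levels were 0.893, 1.66 and 0.972 CPM with chronic saline and 1.76, 6.64 and 2.12 CPM with chronic ethanol, without overlap, as in 7.87% of genes with ethanol higher (1.57 ± 0.55, FDR = 0.450). The choroid plexus list (9 of 9 genes), whose cells carry short leptin receptor forms, summed there to 26.8 to 206 CPM with saline and 915 to 3218 CPM with ethanol, and 5 of its 9 genes were called higher, beside 0.0555% of all genes. Its part in the result was not tested.

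In the dHPC, DS and VS, the libraries with more than 1000 CPM of the choroid plexus list, a limit set after the values were seen, held the high *Lepr* levels of their region. In the vHPC the ranges on either side of the limit overlapped. In the DS these were 4 libraries with 3.10 to 12.7 CPM against 1.11 to 2.25 CPM in the other 8. In the dHPC 10 such libraries had 2.23 to 5.91 CPM and the other 3 had 0.897 to 1.28 CPM. In the VS 1 such library, chronic saline replicate 6, had 5.46 CPM against 0.847 to 1.63 CPM in the other 11, and in the vHPC the ranges were 2.12 to 6.64 CPM (4 libraries) and 0.290 to 2.73 CPM (8 libraries). In the CTX no library passed 1000 CPM, and choroid sums there were 5.65 to 129 CPM. *Lepr* was nonetheless at 1.54 to 3.96 CPM in the CTX, which overlaps the range of the 10 dHPC libraries above the limit. The dHPC, DS and VS differences of *Lepr* ranged from -1.28 ± 0.60 in the VS after chronic ethanol (FDR = 0.527) to 0.47 ± 0.38 in the DS after acute ethanol, a description, and every group pair overlapped.

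**Figure D3:**
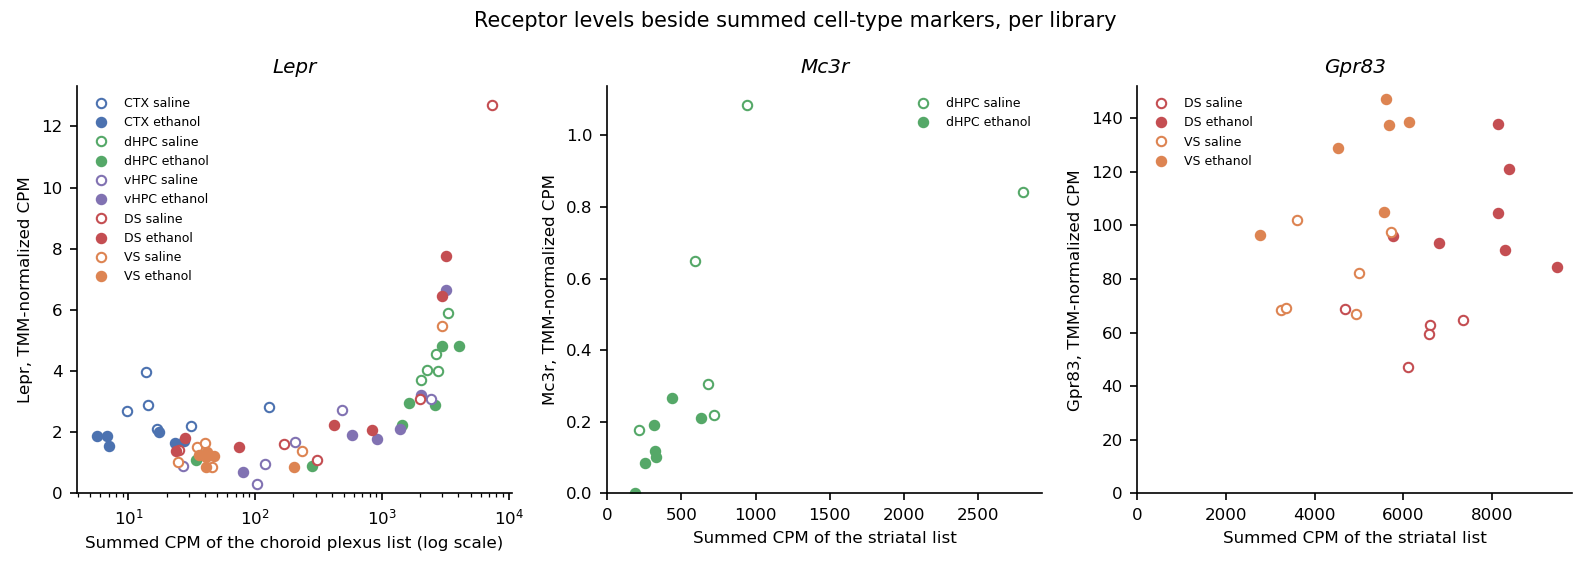
Left, *Lepr* level (CPM) against the summed CPM of the choroid plexus list (log axis) in all regions. Middle and right, *Mc3r* in the dHPC and *Gpr83* in the DS and VS against the summed CPM of the striatal neuron list, with each symbol 1 library, saline open and ethanol filled. *Lepr* reached 12.7 CPM in the library with the highest choroid sum (7395 CPM). *Gpr83* per 1000 CPM of the striatal list overlapped between ethanol and saline in DS chronic and in both VS comparisons.

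The isoform table cannot part the forms of *Lepr*, since a read on a shared exon is counted for each. Lepr-203, which codes for 894 residues, had 92.3% of the gene's reads, Lepr-201, the long signalling form of 1162 residues, 69.1%, and Lepr-202, of 892 residues, 62.7%. For *Calcr* both forms of 533 and 496 residues had up to 99.8% and 99.3%, and for *Gpr83* the form of 423 residues had 96.6%.

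*Insr* (chr8:3172061-3329617, minus strand, ENSMUSG00000005534) had small differences in every region. Its CTX levels with chronic ethanol, 46.9, 39.9 and 40.6 CPM, lay below those with chronic saline, 53.5, 50.9 and 49.6 CPM, without overlap, as in 8.91% of genes with ethanol lower. The difference of -0.28 ± 0.09 did not pass (FDR = 0.443, DESeq2 FDR = 0.308). In the acute CTX comparison it was 0.08 ± 0.06 and in the acute DS comparison 0.20 ± 0.07, both descriptions and both without overlap, with 56.2 to 58.6 CPM against 61.7 to 69.5 CPM in the DS. Groups with ethanol higher and no overlap were found for 8.88% (CTX) and 11% (DS) of all genes. In the other 7 comparisons it lay between -0.08 and 0.07 with standard errors of 0.05 to 0.11. An exon of *Insr* overlaps a gene on the other strand, *Gm64081*, whose reads cannot be told apart from it in the CTX and dHPC libraries.

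**Figure D4:**
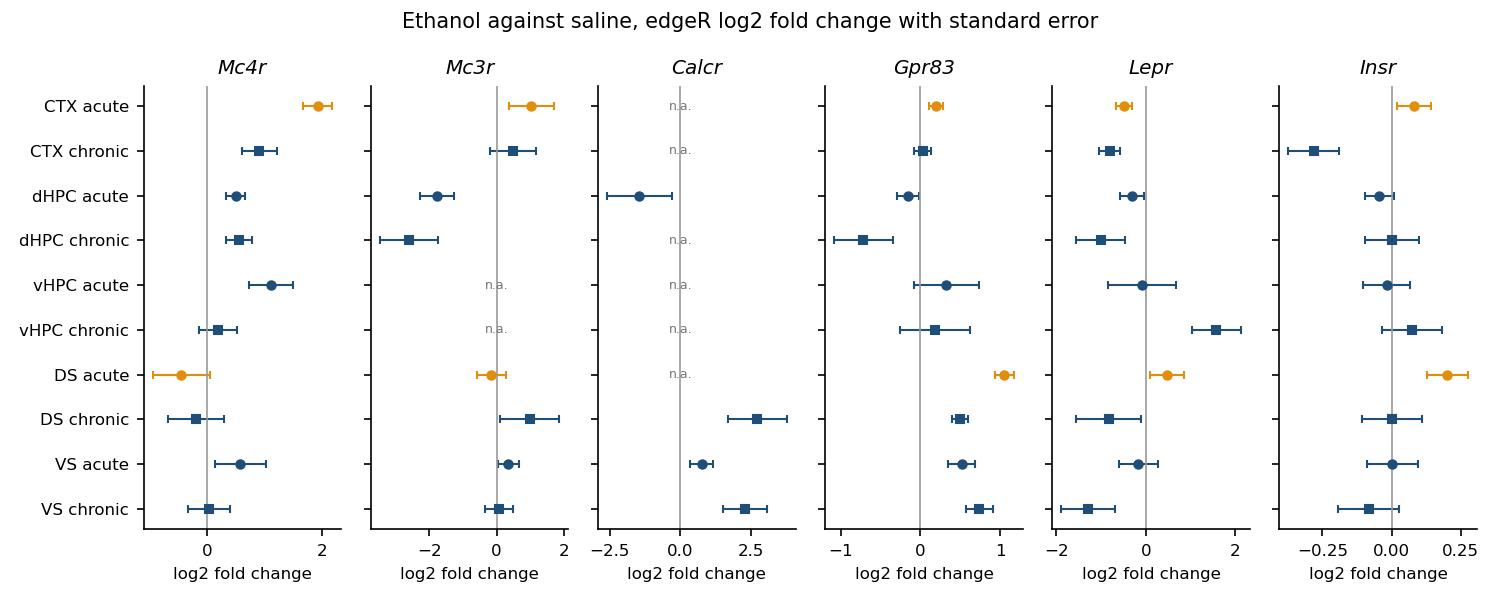
Ethanol against saline in the 10 comparisons for each receptor, as the log2 fold change (horizontal axes, a separate scale per gene) with its standard error, acute as circles and chronic as squares. Orange symbols are the CTX and DS acute comparisons, which served to choose genes and carry no test, and n.a. marks comparisons without a fitted value or with a group at 0. *Mc4r* lies right of 0 in the 6 comparisons of the CTX, dHPC and vHPC, and *Gpr83* in the 4 of the DS and VS.

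Whether the difference with ethanol depended on the paradigm was tested in the dHPC, vHPC and VS. None of the 16 member tests passed an FDR of 0.1, none had an unadjusted p below 0.05, and DESeq2 called none of them and 0.00745%, 2.02% and 0.0191% of all genes. For all genes edgeR called 0 in each region, with 1202, 2381 and 965 genes at an unadjusted p below 0.05. The term (chronic minus acute, log2) was 0.22 ± 0.27 for *Gpr83* and 1.55 ± 0.95 for *Calcr* in the VS, and -0.92 ± 0.53 for *Mc4r* and 1.65 ± 1.03 for *Lepr* in the vHPC. As descriptions, it was -1.02 ± 0.42 for *Mc4r* and -0.37 ± 0.11 for *Insr* in the CTX and -0.56 ± 0.18 for *Gpr83* in the DS.

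Genes that act with these receptors were followed as 6 lists (melanocortin system with 12 genes in the table, calcitonin and amylin system with 9, ligands and partners of GPR83 with 4, leptin signalling with 9, insulin signalling with 18 and other appetite receptors with 20). In the 8 tested comparisons outside CTX acute and DS acute, edgeR called 0 in 450 tests of list genes, while it called 0 to 11 genes of all in each comparison. An unadjusted p below 0.05 was found in 64 of these 450 tests, beside 7.32% to 11.9% of all genes in each comparison. DESeq2 called 11 of them, beside 0.608% to 2.9% of all genes. Those included *Mchr1*, the receptor of melanin-concentrating hormone, in the VS after chronic ethanol (log2 fold change 0.79, DESeq2 FDR = 0.0207) and *Adipor2*, an adiponectin receptor, in the dHPC after acute ethanol (0.38, DESeq2 FDR = 0.0266), both named after their values were seen. Others of the 11 were *Irs2* (0.51, DESeq2 FDR = 0.0413) and *Ramp1* (0.41, DESeq2 FDR = 0.0657) in the VS after chronic ethanol. *Pcsk1* was called lower in the VS after acute ethanol (-0.93, DESeq2 FDR = 0.0580). The medians of the longer lists lay near that of all genes, with log2 medians of -0.06 to 0.12 for leptin signalling, -0.09 to 0.10 for insulin signalling and -0.16 to 0.08 for the melanocortin list over the 10 comparisons. The short lists varied more, from -0.63 to 0.35 for calcitonin and amylin and from -0.33 to 0.64 for GPR83 partners.

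In the CTX after acute ethanol 3 of 55 list genes tested passed the test, beside 1.99% of all genes. *Socs3*, an inhibitor of leptin receptor signalling, fell from 3.54 ± 0.57 to 1.92 ± 0.22 CPM (SD, n = 3 each; log2 fold change -0.88 ± 0.17 SE, FDR = 0.0340) and was the only 1 of 8 leptin signalling genes tested that passed. *Igf2*, a growth factor that is also on the fibroblast list, fell from 43.5 ± 2.8 to 27.7 ± 2.1 CPM (-0.65 ± 0.08, FDR = 0.00862). *Hcrtr1*, an orexin receptor, rose from 1.78 ± 0.32 to 3.17 ± 0.25 CPM (0.83 ± 0.18, FDR = 0.0493). None of the 10 melanocortin genes tested passed, and above 1 CPM the largest differences were 0.35 ± 0.13 for *Mrap2*, the accessory protein of MC4R (FDR = 0.262), and -0.29 ± 0.11 for *Pcsk1*, which cuts the *Pomc* precursor (FDR = 0.276). *Pcsk1n*, which encodes proSAAS, was at -0.25 ± 0.07 (FDR = 0.115 by edgeR, 0.03255 by DESeq2). The calcitonin and amylin genes above 1 CPM ran from -0.35 for *Calcrl* to 0.09 for *Ramp2*.

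In the DS after acute ethanol 7 of 52 list genes tested passed, beside 5.15% of all genes. *Cckbr*, a cholecystokinin receptor, fell from 16.6 ± 1.3 to 4.73 ± 1.75 CPM (-1.84 ± 0.22, FDR = 0.000436), *Pcsk1* from 24.3 ± 7.8 to 12.3 ± 2.1 CPM (-1.01 ± 0.20, FDR = 0.0131) and *Ramp3*, which pairs with the calcitonin receptor and is also on the thalamic neuron list, from 6.58 ± 1.41 to 3.32 ± 0.65 CPM (-1.01 ± 0.26, FDR = 0.0514). In the same libraries 8 of 9 pallial neuron markers were called lower, and their part in these falls was not tested.

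The rises in the DS were in insulin signalling and in 1 receptor, in libraries in which 8 of 10 striatal neuron markers were called higher and whose part in these rises was not tested. *Foxo1*, a transcription factor held back by insulin, rose from 119 ± 14 to 161 ± 12 CPM (0.42 ± 0.09, FDR = 0.0171) and *Grb10*, an adaptor that inhibits the insulin receptor, from 41.6 ± 0.7 to 54.6 ± 5.4 CPM (0.40 ± 0.09, FDR = 0.0277). *Irs4*, an insulin receptor substrate, rose from 0.350 ± 0.237 to 3.79 ± 3.44 CPM (3.55 ± 0.84, FDR = 0.0365), with a wide spread among the ethanol libraries. *Mchr1* rose from 32.6 ± 3.5 to 42.3 ± 1.3 CPM (0.37 ± 0.10, FDR = 0.0558). Of the 16 insulin signalling genes tested, 3 rose, none fell and the others did not pass, with *Igf1* lowest at -0.72 ± 0.34 (FDR = 0.324). Among the leptin signalling genes none of 8 passed, from -0.32 for *Socs3* to 0.21 for *Stat5b*. In both acute comparisons these list genes shared the ethanol and saline libraries with the members.

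The genes most like each receptor across libraries were sought as Pearson's r of log2 levels, over 25 libraries of CTX and dHPC (18357 genes) and 36 of vHPC, DS and VS (16675 genes). These libraries share mice, regions and batch, so r describes mainly regional pattern, and genes are no independent replicates. *Gpr83* was most like *Cpne5* (r = 0.971), *Erich3* (0.970) and *A230103J11Rik* (0.968) in the striatal batch. *Calcr* was most like *Peg10* (0.964), *Arhgap36* (0.932) and *Gpr101* (0.927), and *Peg10* lies near it, at chr6:4747306-4760517 in GRCm39. *Lepr* was most like *Trpv4* (0.920) and *Enpp2* (0.918), genes of the choroid plexus epithelium, in 1 batch and *Slc13a4* (0.907) in the other. *Mc4r* was most like *Galnt16* (0.961) and the dopamine receptor gene *Drd5* (0.949) in the CTX and dHPC, and *Mc3r* like *Cacna2d2* (0.888) and the GABA-synthesis gene *Gad2* (0.883) in the other batch. For *Insr* no gene passed r = 0.678 in the batch of the striatum.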

How the data were processed

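RNA-seq of 62 libraries from 5 brain regions was analysed, grouped by region, paradigm and treatment as per the labels. Before deposit the authors used Cutadapt 5.0 to trim the reads and STAR 2.7.10a to align them (GRCm39), and made raw counts per gene and per isoform with featureCounts 2.0.6 on Ensembl exons. All libraries were counted as reverse-stranded, and reads at several places or features were counted for each. Of the values from 1 to 100 in the deposited counts, 65.95% (CTX and dHPC) and 86.13% (other regions) are even, since a pair with both mates counted adds 2, so counts are called reads here. No normalization or filter had been applied.

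Genes were kept where 2 or more libraries of a group had 5 or more counts, and tested with edgeR 4.0.16 (limma 3.58.1, R 4.3.3, with the data.table package at 1.17.8), TMM, a prior count of 0.125 and the quasi-likelihood F test, fitted to the groups compared. The Benjamini-Hochberg FDR threshold was 0.1 over all genes tested. Errors of fold changes are standard errors. The 10 comparisons of ethanol with saline, 5 interactions of paradigm and treatment, and 4 comparisons of regions in saline mice (mouse as a block) were run. Alternatives were DESeq2 1.42.0 (Wald test), edgeR with the size factors of DESeq2, no filter on counts, all 4 groups of a region in 1 fit, a replicate block, no mouse block, DS chronic saline replicate 2 kept, and each library left out in turn. The tests were checked on simulated counts. The smallest library limits DS precision, and a gene at 0 was taken to hold up to 3 counts per library. Reads carry no molecular identifiers, so counting intervals cover counting error only.

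The 6 members and all lists were chosen with earlier results of these data known. The text names the members and up to 3 most similar genes per member. Of the list genes it names those past the edgeR FDR threshold with ethanol against saline, and some of those called by DESeq2. For some lists it also gives the genes above 1 CPM with the largest rise or fall in the acute CTX and DS comparisons. List genes called between regions are not named. A gene of the melanocortin list was not analysed here. Start-site windows came from RefSeq on GRCm38.p6, with 6 windows for 4 members. Summaries and plots were made with Python 3.11.15, pandas 2.3.3, numpy 2.4.6, scipy 1.17.1 and matplotlib 3.10.9.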

Additional observations from a re-analysis of the deposited data

Results flagged for a closer look

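In 42 groups of 4 to 6 libraries, 7 had a highest or lowest library far from the others by Dixon's test. Chance alone would give this in about 1 of 20 groups for normally distributed values from 1 population. All flagged groups but that of *Gpr83* in dHPC acute ethanol pooled the saline libraries of both paradigms, and some held counts near 0. That rate therefore need not hold here. All values are CPM. *Gpr83* was 37.1 (37.12) in dHPC chronic saline replicate 5, where the striatal list summed to 2802, and 19.95 in dHPC acute ethanol replicate 4. *Lepr* was 12.7 in DS chronic saline replicate 6 and 5.46 (5.461) in VS chronic saline replicate 6, with choroid plexus sums of 7395 and 2955. DS chronic saline replicate 6 also stood apart for *Calcr*, at 0.190 (0.1896, or 2 counts), and *Insr*, at 64.75. *Mc3r* was 0.538 (0.5384, or 8 counts) in vHPC acute saline replicate 2. The DS and VS libraries of chronic saline replicate 6 enter the saline side of the chronic *Calcr* and *Gpr83* differences, whose log2 values with each library left out in turn ranged from 1.68 to 6.04 and 0.40 to 0.61 in the DS (the 6.04 a fit against 1 saline library at 0) and from 1.81 to 4.60 and 0.64 to 0.93 in the VS. The causes were not tested.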

How the results depend on the processing

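Of 1155 recomputed fold changes of tested members, 1059 kept their direction and their side of the threshold, 23 lost and 12 gained a call, and 61 reversed. Of 284 recomputed descriptions, 9 moved beyond their spread. A change of sign was counted among them only where the reported value was below the FDR threshold, and none of those reversed. Sign changes of the other descriptions were not counted. The number of members called, 0 in each comparison of ethanol with saline tested, became 1 with DESeq2 in DS chronic and in VS chronic (*Gpr83*). With no low-count filter it became 1 in dHPC acute (*Mc3r*), vHPC chronic (*Lepr*), DS chronic and VS acute (*Gpr83*) and 2 in VS chronic (*Calcr*, *Gpr83*), and it ranged from 0 to 1 (*Calcr*) in VS chronic with a library left out. In VS against DS the 2 calls became 1 with DESeq2 (*Gpr83*, with no adjusted p for *Calcr*), 1 with no mouse block (*Calcr*) and 0 to 2 with a library left out. All genes called ranged over all alternatives from 0 to 1488 in CTX acute (515 as reported), 285 to 1798 in DS acute (1056), 0 to 281 in dHPC acute (11), 0 to 578 in vHPC acute (0), 0 to 790 in vHPC chronic (11), 0 to 536 in VS acute (8), 0 to 615 in VS chronic (0), 0 to 475 in DS chronic (0) and 61 to 1804 in VS against DS (730). The causes were not tested.

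The replicate block, with replicate number as a term where 2 groups share numbers, called 789 genes in CTX acute, 143 in CTX chronic and 15 in dHPC acute, and no member was called in CTX chronic or dHPC acute. Same-numbered libraries come from different mice, with correlations of their deviations of 0.087 and 0.164 in CTX acute, -0.003, -0.038 and 0.004 in dHPC acute and 0.075 and -0.33 in CTX chronic, so the numbers were not taken as pairs. Under this block CTX acute *Mc4r* was 1.76 and CTX chronic *Gpr83* reversed to -0.0726.

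Other reversals follow, and with a library left out some of the ranges reached far from 0 on the log2 scale. *Insr* became -3e-04 (no filter) and -0.0013 (all 4 groups in one fit) in dHPC chronic, -9e-04 (DESeq2) and -0.0014 (size factors) in VS acute, and -0.0092 (DESeq2), -0.0085 (size factors) and -0.0154 (no filter) in DS against vHPC. *Lepr* in VS against vHPC became 0.0595 with no mouse block. With a library left out, *Insr* ranged from -0.0847 to 0.1097 in dHPC chronic, -0.0521 to 0.0297 in vHPC acute, -0.0624 to 0.0836 in DS chronic, -0.0277 to 0.0429 in VS acute, -0.0374 to 0.1454 in the dHPC interaction, -0.0788 to 0.0205 in DS against vHPC and -0.0781 to 0.0146 in VS against DS. *Gpr83* ranged from -0.062 to 0.1036 in CTX chronic, -0.4144 to 0.5943 in vHPC acute, -0.7353 to 0.5119 in vHPC chronic, -0.8516 to 0.0625 and -1.0619 to 0.595 in the dHPC and vHPC interactions and -0.1098 to 0.4515 in dHPC against CTX. *Lepr* ranged from -0.6573 to 0.3453 in vHPC acute, -1.5167 to 0.5017 in DS chronic, -0.3605 to 0.0114 in VS acute and -0.668 to 0.4399 in VS against vHPC. *Mc4r* ranged from -0.0745 to 0.4832 in vHPC chronic, -0.5702 to 0.3934 in DS chronic, -0.2728 to 0.2031 in VS chronic and -0.1009 to 0.2565 in the dHPC interaction, *Mc3r* from -0.347 to 0.3212 in VS chronic, and *Calcr* from -0.2312 to 2.4748 in the dHPC interaction and -3.1721 to 0.4037 in DS against vHPC.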
